A study of Homo sapiens with 9 samples.

Results

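The comparison is that of DsiRNA 13.6, a reagent against the T-box gene TBX3, with the control DsiRNA NC1, in 501mel cells, an established human melanoma line that still makes pigment-cell transcripts. It rests on 6 of the 9 libraries of the series, 3 of NC1 and 3 of 13.6, taken by their labels. All genes of the count table were considered, and 14731 of its 25382 entries held enough reads to be tested. The 3 libraries of a second TBX3 reagent, DsiRNA 13.8, were left out of the comparison. They entered the model for its spread, for the scaling and for the choice of genes with enough reads to be tested. They also served for a few stated differences between the reagents. With the 6 libraries alone, 14172 genes were tested. All groups had the same line, medium (DMEM with fetal bovine serum), Lipofectamine transfection and harvest at 24 h, and differed in the DsiRNA alone. Controls are labelled control genotype with NC1, and no untransfected cells were part of the groups compared. Replicates are called biological in the labels, which do not say how the cultures were separated, so the p-values measure the spread between these libraries of 1 line.

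A DsiRNA is a short synthetic RNA duplex that the nuclease Dicer trims and hands to an Argonaute protein, which cuts transcripts that match the guide strand along its length. The same guide can also lower transcripts that match only its seed, the few bases near its 5′ end, mostly through sites in 3′ UTRs. TBX3 is a transcription factor of the T-box family that mainly represses its targets, and in melanoma it is known for repressing the adhesion gene CDH1 and the cell cycle inhibitor CDKN1A and for letting cells bypass senescence. The title of the series ties it to MC1R, the melanocortin receptor whose cyclic AMP signal steers melanocytes from pheomelanin to eumelanin. Duplex RNA can also be read by sensors of the interferon system, whose target genes are therefore described here beside those of pigment cells.

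Levels are in CPM (counts scaled to a common library total, after TMM normalisation), a unit in which a gene can be compared between libraries but not with another gene. Values for the controls and for 13.6 stand in replicate order. Changes are log2 fold changes of 13.6 over control ± SE, and adjusted p-values come from the quasi-likelihood test of edgeR after Benjamini-Hochberg adjustment over all genes tested. "Rose", "fell", "higher" and "lower" in counts refer to an adjusted p under 0.05.

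TBX3 itself was read at 88.6, 83.8 and 84.0 CPM in the controls and 46.4, 41.0 and 39.4 CPM with 13.6. The 13.6 libraries held 49.4% of the control mean (log2 fold change −1.02 ± 0.07, adjusted p = 1.27e-07). Every 13.6 library lay below every control, and replicate libraries differed far less than the groups did, so that this is a partial loss of the transcript, close to equal in the 3 cultures. In bulk RNA, fewer cells with the transcript and less transcript per cell cannot be told apart. The table lists 17 T-box genes, and 8 could be tested, of which 3 were higher and 3 lower, where 49.9% of all tested genes were called, 24.9% higher and 25.0% lower. TBX2, the closest relative of TBX3, fell by 0.51 ± 0.08 on the log2 scale, with levels of 25.8, 25.8 and 23.1 CPM in the controls and 17.3, 18.7 and 16.3 CPM with 13.6. EOMES, a T-box factor of early development and of lymphocytes, rose from 1.75, 2.37 and 1.08 CPM to 7.34, 6.83 and 6.25 CPM (1.98 ± 0.22). TBX15, a T-box factor of limb and muscle, rose from a level near the detection limit, 0.368, 0.494 and 0.367 CPM in the controls and 1.07, 1.25 and 0.880 CPM with 13.6 (1.38 ± 0.28).

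Neither gene that TBX3 is best known to repress passed the test upwards. CDH1, the epithelial cadherin, stood at 1.56, 1.69 and 1.39 CPM in the controls and 1.96, 2.11 and 1.98 CPM with 13.6, a difference of 0.38 ± 0.20 that did not pass the test (adjusted p = 0.125). CDKN1A, the p21 inhibitor, was barely read in any library, at 36, 11 and 16 reads in the 3 controls and 6, 5 and 11 reads after 13.6. Its fitted change of −1.56 ± 0.51 passed the test (adjusted p = 0.0207), downwards, and no longer did so when control replicate 1 was left out (−1.03, adjusted p = 0.145) or when 13.6 replicate 1 or 2 was left out (adjusted p = 0.0617 and 0.0847). CDKN2A, which encodes p16 and ARF, read 146, 147 and 236 CPM in the controls and 195, 246 and 218 CPM with 13.6, with control replicate 3 apart from the others, and its difference of 0.32 ± 0.19 did not pass (adjusted p = 0.198). Without control replicate 3 it was 0.58 ± 0.16 (adjusted p = 0.0159). CDKN2B, the neighbouring gene for p15, rose from 56.3, 37.8 and 47.5 CPM to 91.0, 90.3 and 80.04 CPM (0.88 ± 0.12).

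The response was broad and mostly shallow. At an adjusted p under 0.05, 49.9% of all tested genes differed, 24.9% higher and 25.0% lower with 13.6, and 8198 genes lay under an unadjusted p of 0.05. All counts of gene lists below are to be read beside these shares. Of the genes called, 59.2% changed by less than 1.5-fold, and 8.1% of the genes tested were called with at least a 2-fold change, 3.98% higher and 4.12% lower. At least 4-fold changes numbered 86 higher and 78 lower. The groups did not overlap in 56.0% of genes: all 3 libraries of 13.6 lay above all 3 controls in 27.9% and below them in 28.1%. The share called grew with the level, from 21.1% of 2338 genes under 1 CPM to 56.1% of 2622 genes between 5 and 20 CPM, and then held at 57.7% of 5708 genes between 20 and 100 CPM and 56.8% of 2314 genes over 100 CPM. In that highest class 758 genes were higher and 556 lower, with a median change of 0.05, against −0.01 over all genes.

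**Figure D1:**
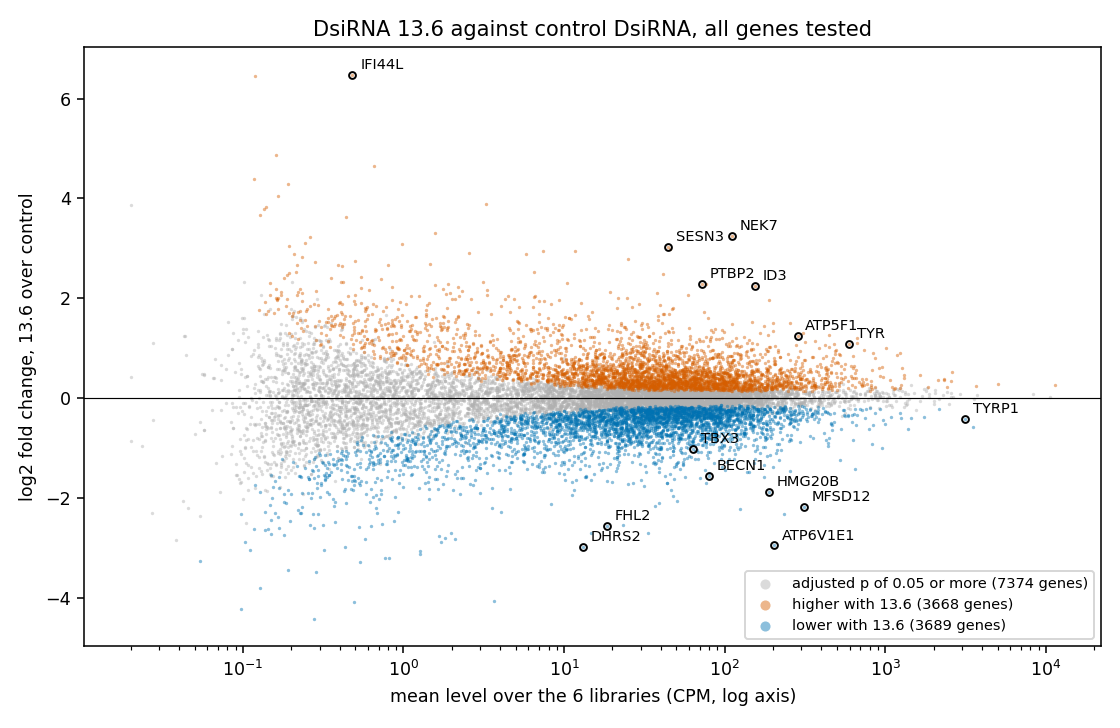
Each point is 1 of the 14731 tested genes, with its mean level over the 6 libraries in CPM (log axis) across and its log2 fold change of 13.6 over control upwards. Orange genes were higher and blue genes lower at an adjusted p under 0.05, grey genes did not pass, and the named genes are circled. Called genes reach from below 1 CPM to the most read genes. TBX3, at −1.02, lies further out than the median absolute change of called genes, 0.50, and some genes moved further than TBX3.

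Library totals ran from 38105026 to 47531852 reads in the 6 libraries. Across genes, log2 CPM of replicate controls correlated at 0.9905 to 0.9914, of 13.6 replicates at 0.9929 to 0.9936, and of controls with 13.6 at 0.9744 to 0.978. The summed reads of 8 melanocyte-lineage markers made up 13600 to 15260 RPM (reads scaled to the plain library total) in the controls and 13730 to 14630 with 13.6, and all 8 were read in every library. Keratinocyte markers summed to 41.5 to 46.0 RPM in the controls and 42.6 to 43.4 with 13.6, nearly all of it KRT10 with 1576 to 2035 reads a library, which did not pass; KRT5 and KRT15 were at 0 in the 6 libraries, and the other 4 of the 7 had at most 8 reads. Of the 8 fibroblast markers tested, THY1 and POSTN rose, the other 6 did not pass, and the summed level of all 10 was 5.70 to 7.14 RPM in the controls and 7.25 to 8.96 with 13.6. POSTN, with 2, 2 and 5 control reads, could pass the read filter only through libraries of the TBX3 reagents. Its rise therefore adds no support to this count. Leukocyte markers summed to 74.4 to 78.7 and 97.9 to 103.6 RPM, nearly all of it CD68, a lysosomal protein that many cell types make, while PTPRC, the common leukocyte antigen, had 4 to 19 reads a library. Endothelial markers summed to 1.05 to 1.70 and 0.62 to 0.87 RPM. The part of these markers in the results below was not tested.

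The kinds of transcript did not move alike. Protein-coding genes were balanced, with 3477 higher and 3283 lower of 12966 and a median change of 0.00. Of 791 long non-coding RNAs 10.2% were higher and 25.7% lower, with a median of −0.20, and of 313 transcribed pseudogenes 6.07% and 27.5%, with a median of −0.21. Their shares lower are near the 25.0% of all tested genes, while their shares higher lie below the 24.9%. Reads of the 791 long non-coding RNAs summed to 10650 to 11470 RPM in the controls and 8851 to 9027 RPM with 13.6, without overlap. Of 145 small nucleolar RNAs, guides of ribosomal RNA modification that are cut out of introns, 32 were higher (22.1%) and 1 was lower, with a median of 0.40. The share higher is near the 24.9% over all levels, but these RNAs were mostly read at a low level. Of 2338 tested genes under 1 CPM, 231 were higher and 262 lower. Reads of the small nucleolar RNAs summed to 121.9 to 136.3 RPM in the controls and 167.6 to 169.5 with 13.6.

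Box C/D members, which guide methylation, had 24 of 96 higher by edgeR (25.0%) and 0 lower. Box H/ACA members, which guide pseudouridylation, had 8 higher and 1 lower of 48 (16.7% higher). The first share is near that of all tested genes, 24.9%, and the second is below it, and the medians were 0.49 and 0.36. Among all genes under 1 CPM, a closer match in level, 21.1% were called in either direction. SNORD17 went from 67, 75 and 64 reads in the controls to 137, 169 and 151 with 13.6 (1.06 ± 0.21). SNORD80, whose host is GAS5, went from 145, 143 and 169 reads to 292, 283 and 313 (0.87 ± 0.15). Its host moved the other way: GAS5 fell by 0.22 ± 0.09 on the log2 scale (adjusted p = 0.0422). Over the 18 tested host transcripts of the SNHG series and GAS5, 4 were higher and 5 lower, with a median of −0.12. SNHG3 rose (0.45 ± 0.07) and SNHG7 and SNHG11 fell (−0.51 ± 0.12 and −0.60 ± 0.13). The small nucleolar RNAs were read at a low level, with medians of 0.67 CPM for box C/D and 0.75 CPM for box H/ACA members, and without the counting rule their reads cannot be told apart from unspliced host RNA.

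The 20 genes that rose the most, taken from genes averaging 5 CPM or more whose groups did not overlap, changed by 2.00 to 3.25 on the log2 scale, with SEs of 0.06 to 0.26. They come from many parts of the cell. PTBP2, the neuronal splicing repressor, rose from 24.8, 23.7 and 24.6 CPM to 118, 122 and 118 CPM (2.29 ± 0.06). GPD1L, a relative of glycerol-3-phosphate dehydrogenase, rose from 5.26, 7.04 and 6.72 CPM to 42.3, 44.2 and 44.1 CPM (2.78 ± 0.10). ENDOD1, which encodes a protein with an endonuclease domain, rose from 12.7, 12.1 and 12.7 CPM to 72.7, 70.3 and 68.6 CPM (2.50 ± 0.06). Within each of these genes the 3 libraries of 13.6 were close to each other and several times the controls. SHCBP1, a protein of the midbody that binds the SHC adaptor, reached 4.28-fold the control level (2.10 ± 0.09). ENOPH1, an enzyme of the methionine salvage pathway, went from 20.04, 24.5 and 23.1 CPM to 92.5, 97.7 and 94.2 CPM (2.07 ± 0.07). ALCAM, an adhesion molecule of the immunoglobulin family, was low in the controls and rose from 2.73, 2.52 and 2.45 CPM to 11.2, 10.7 and 9.96 CPM (2.05 ± 0.12). DNAH7, a dynein heavy chain of cilia, rose by 2.53 ± 0.14, and COL9A1, a collagen of cartilage, by 2.32 ± 0.11. SLC5A4, a glucose sensor of the sodium-glucose transporter family, had the least even controls of the set, with 4.65, 11.3 and 5.60 CPM in the controls and 27.2, 31.3 and 35.3 CPM with 13.6 (2.13 ± 0.26), and HTN1, a histatin best known from saliva, rose from 9.28, 6.16 and 10.3 CPM to 34.3, 38.0 and 32.2 CPM (2.02 ± 0.15). NEK7, a kinase of the mitotic spindle and of the NLRP3 inflammasome, led the order with 20.5, 21.4 and 21.7 CPM in the controls and 205, 193 and 205 CPM with 13.6.

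The 20 genes that fell the most changed by −1.70 to −2.97 on the log2 scale, with SEs of 0.07 to 0.29. ATP6V1E1, a subunit of the proton pump of lysosomes and melanosomes, was read at 349, 346 and 388 CPM in the controls and 46.7, 45.7 and 47.9 CPM with 13.6. MFSD12, a transporter of cysteine into melanosomes and lysosomes, fell from 547, 402 and 570.4 CPM to 108, 117 and 112 CPM (−2.17 ± 0.14). SNRPD2, a core Sm protein of the spliceosome, fell from 184, 183 and 246 CPM to 39.3, 47.6 and 44.8 CPM (−2.22 ± 0.13). The highest 13.6 library lay well below the lowest control in each of these genes. HMG20B, a subunit of the LSD1-CoREST repressor complex, fell from 293, 253 and 346 CPM to 79.5, 76.0 and 86.3 CPM (−1.88 ± 0.13). TOMM34, a cochaperone of mitochondrial import, fell by 2.06 ± 0.08 and IGBP1, the alpha4 regulator of phosphatase PP2A, by 2.10 ± 0.09 on the log2 scale. ITM2A, a membrane protein with a BRICHOS domain, went from 69.6, 75.7 and 81.3 CPM to 17.6, 19.7 and 20.7 CPM (−1.97 ± 0.09). CYR61, now CCN1, a secreted target of YAP, fell from 73.0, 48.2 and 58.5 CPM to 14.2, 13.2 and 12.9 CPM (−2.16 ± 0.14). MZT1, a small protein of the gamma-tubulin ring, fell by 1.83 ± 0.11, PIK3R3, a regulatory subunit of PI3 kinase, by 1.85 ± 0.12, and GGCT, gamma-glutamylcyclotransferase of glutathione breakdown, by 1.70 ± 0.09. SLAIN1, a microtubule plus-end protein, SORBS2, an actin adaptor, DESI2, of a family of desumoylating peptidases, and PERM1, a muscle regulator of energy metabolism, complete the set together with DHRS2, MS4A15, UBAP1L, FHL2 and TRPM1, and DHRS2 was the least even in the controls (34.0, 14.7 and 20.6 CPM in the controls and 3.27, 2.89 and 2.71 CPM with 13.6).

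**Figure D2:**
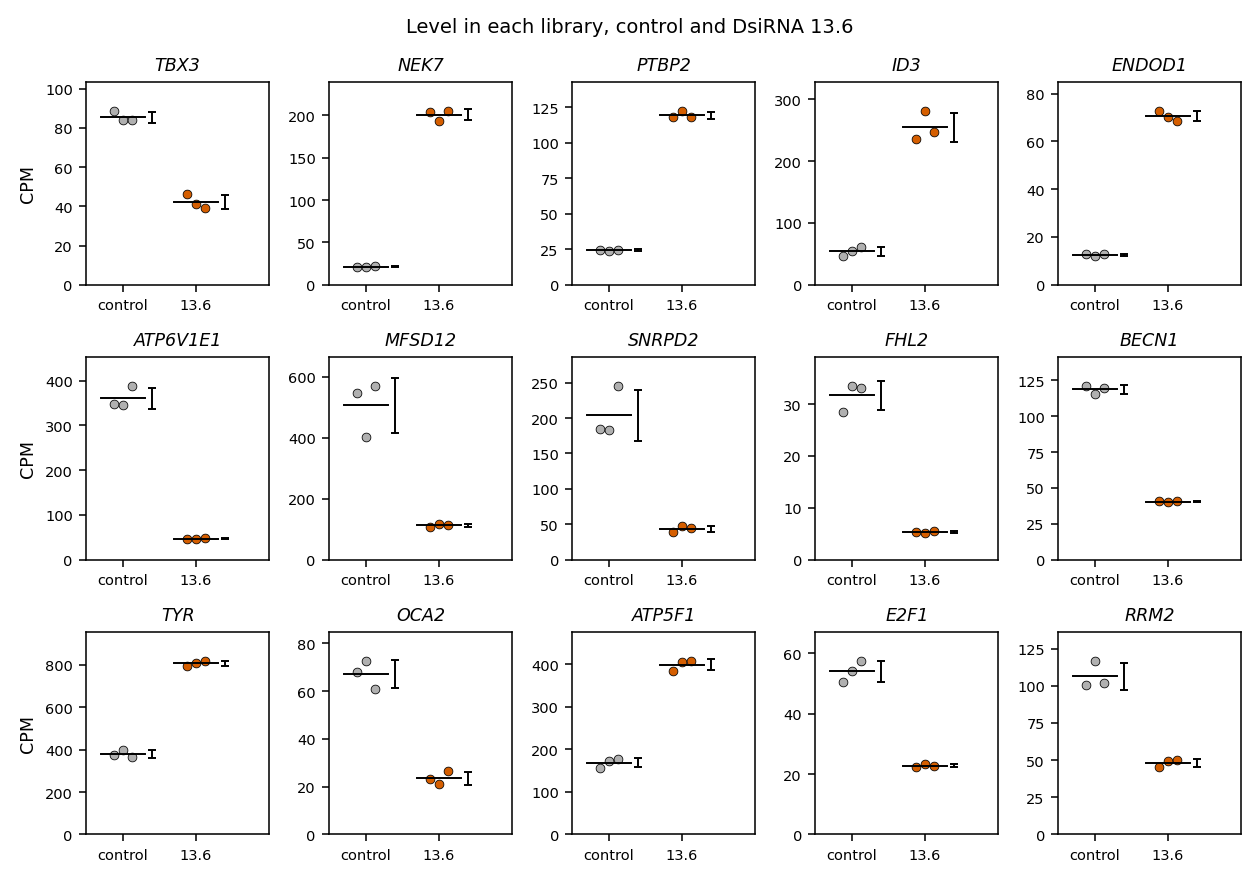
Level in CPM of 15 genes in each library, with controls in grey and 13.6 in orange; the horizontal line is the mean of 3 libraries and the bar beside it 1 SD, and each axis starts at 0. In each panel the 3 libraries of 13.6 lie on one side of the 3 controls, as for ATP6V1E1 (46.7, 45.7 and 47.9 CPM against 346.0 CPM in the lowest control).

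Many of these 40 genes also differed between the 2 TBX3 reagents. The direct difference of 13.6 and 13.8 passed the test in 16 of the 20 genes that rose and in 18 of the 20 that fell, where 61.1% of all genes did. The genes were chosen for their level in the 13.6 libraries, which favours a difference, so these counts are a description. Of the 16, 13 had a direct difference of the same sign as their change against control, and of the 18, all 18 did. The distances of the 2 reagents from control were not compared. PTBP2 differed by 2.31 ± 0.06 and was read at 23.9, 23.4 and 25.2 CPM with 13.8. ACSL5, an acyl-CoA synthetase, differed by 2.97 ± 0.11 and was read at 2.99, 2.45 and 2.42 CPM with 13.8. ITM2A was 2.75 ± 0.09 lower with 13.6 than with 13.8 on the log2 scale, and SORBS2 was 3.46 ± 0.13 lower. No such difference passed for SESN3, a sestrin that restrains growth signalling (0.11 ± 0.08), COL9A1 (−0.19 ± 0.10), PSAT1 (−0.10 ± 0.06) or ID3 (−0.13 ± 0.11), nor among the genes that fell for DESI2 (0.17 ± 0.07) and PERM1 (−0.09 ± 0.21). IFIT3, ALCAM and ID1 were lower with 13.6 than with 13.8, by 0.36 ± 0.08, 0.36 ± 0.11 and 0.69 ± 0.10 on the log2 scale.

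Below 5 CPM a few genes changed by more than the leading genes above. IFI44L, an interferon-stimulated gene, rose from 1, 0 and 0 control reads to 47, 29 and 50, a ratio of scaled reads of 115.7 with an exact 95% counting interval of 20.4 to 4607. XAF1, an interferon-stimulated partner of XIAP, was unread in every control library and had 8, 13 and 11 reads with 13.6, at least 9.80-fold higher when the controls together are set at the floor of 3 reads, where the exact 95% counting interval starts lower, at 7.52-fold. ESM1, endocan of the vessel wall, went from 4, 1 and 1 reads to 51, 64 and 53 (ratio 25.7, 11.6 to 71.1). Changes of LOXL2 and LPL were closer to those above 5 CPM: LOXL2, a lysyl oxidase of matrix, fell from 200, 83 and 102 reads to 20, 19 and 15, and LPL, lipoprotein lipase, rose from 47, 17 and 12 to 218, 180 and 200. These genes were picked after their values were seen, from among the most changed protein-coding genes of low level, and the intervals cover counting error only.

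The 3′ UTRs of the leading genes show which short words they hold. A pair of 7-base words, GCTCTGT and GATTAAC, had come out of an earlier search of these data as the words whose carriers went down and up the most with 13.6, so their direction is a description and not a test. Stretches around the words are printed 5′ to 3′ as DNA from GENCODE v29 transcripts of GRCh38, with the word in capitals, at the first site of each, for those of the 20 most lowered genes that hold the first word and then those of the 20 most raised that hold the second:
ATP6V1E1: ccccagtattGCTCTGTatttatcagc
MS4A15: cccaagatcaGCTCTGTcctttgtcat
FHL2: gttatttacaGCTCTGTaacctcccgt
SNRPD2: gaataataaaGCTCTGTgtttttttct
IGBP1: tcctgcttcaGCTCTGTacaacgaggg
TOMM34: tgggccacctGCTCTGTgcccgctcct
ITM2A: tctgttaggtGCTCTGTaattaacctg
SLAIN1: ttgtagaactGCTCTGTacctgaatac
DESI2: ttttatacaaGCTCTGTtaagttatgt
GGCT: gaattgctctGCTCTGTctgagatttt
NEK7: actgttatgaGATTAACatttctattg
TNFSF13B: tgctaatgtgGATTAACaaataaaaac
GPD1L: acattcttctGATTAACagacacttgt
ENDOD1: gtccagcttgGATTAACttgacgtgta
SHCBP1: cagtcaaaatGATTAACtgtacaacct
ENOPH1: tgtatgctcaGATTAACttccataggt
ALCAM: tgtggaaatgGATTAACatacccgtct
IFIT3: ggaactcaaaGATTAACttttgactaa

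The words lie at different places of their 3′ UTRs. In ATP6V1E1, on chromosome 22, the word starts at base 111 of a 3′ UTR of 538 bases, and in SNRPD2, on chromosome 19, at base 76 of only 99. The NEK7 word, on chromosome 1, starts at base 1282 of 2898, and that of ENOPH1, on chromosome 4, at base 140 of 971. Of the 20 genes that fell the most, 10 hold the first word and 0 the second, and of the 20 that rose the most, 8 hold the second and 2 the first. Over all 12899 genes with a searched 3′ UTR, 17.6% hold the first word and 4.83% the second. TBX3 holds the first word too, at bases 803 and 998 of 1586 on chromosome 12:
TBX3: ttatatctaaGCTCTGTagcaggattc
TBX3: attgtacataGCTCTGTgtaaatagaa

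Across all carriers the shifts were small for the first word and larger for the second. Of 2276 carriers of GCTCTGT, 37.3% were lower and 21.5% higher, against 22.8% and 28.0% of the 10623 genes without it, with medians of −0.11 and 0.02. Of 623 carriers of GATTAAC, 53.6% were higher and 13.3% lower, against 25.5% and 25.9% of the other 12276, with medians of 0.30 and −0.01. The shift was alike in each 13.6 library: medians over the control mean were −0.08, −0.10 and −0.11 for carriers of the first word and 0.32, 0.24 and 0.29 for carriers of the second, and −0.05 to 0.03 in the controls for both. Genes at least 2-fold lower held the first word in 32.1% of 473 cases, and genes at least 2-fold higher held the second in 15.4% of 518.

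A long 3′ UTR holds any word more often, so the genes were also divided by its length into 3 classes of nearly equal size. In the class of short 3′ UTRs, 52.8% of 159 carriers of the first word were lower, with a median of −0.40 against −0.03 for genes without it. In the middle class the medians were −0.23 and 0.02, and in the long class −0.05 and 0.12. For the second word the medians of carriers and others were 0.27 and −0.05 in the short class, on 24 carriers, 0.53 and −0.02 in the middle class and 0.28 and 0.04 in the long class. In the direct difference of 13.6 and 13.8, carriers of the first word had a median of −0.09 against 0.03 for the others over all lengths, with −0.55 against −0.07 in the short class, −0.22 against 0.04 in the middle class and −0.01 against 0.16 in the long class. Carriers of the second word had 0.10 against 0.00 over all lengths, with 0.05 against −0.09, 0.03 against 0.01 and 0.11 against 0.09 in the same order of classes. Whether the guide of 13.6 or of NC1 carries the complement of either word was not tested, since their sequences were not used here. A rise with 13.6 and a fall with NC1 cannot be told apart without untransfected cells, and the same holds for the opposite direction.

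**Figure D3:**
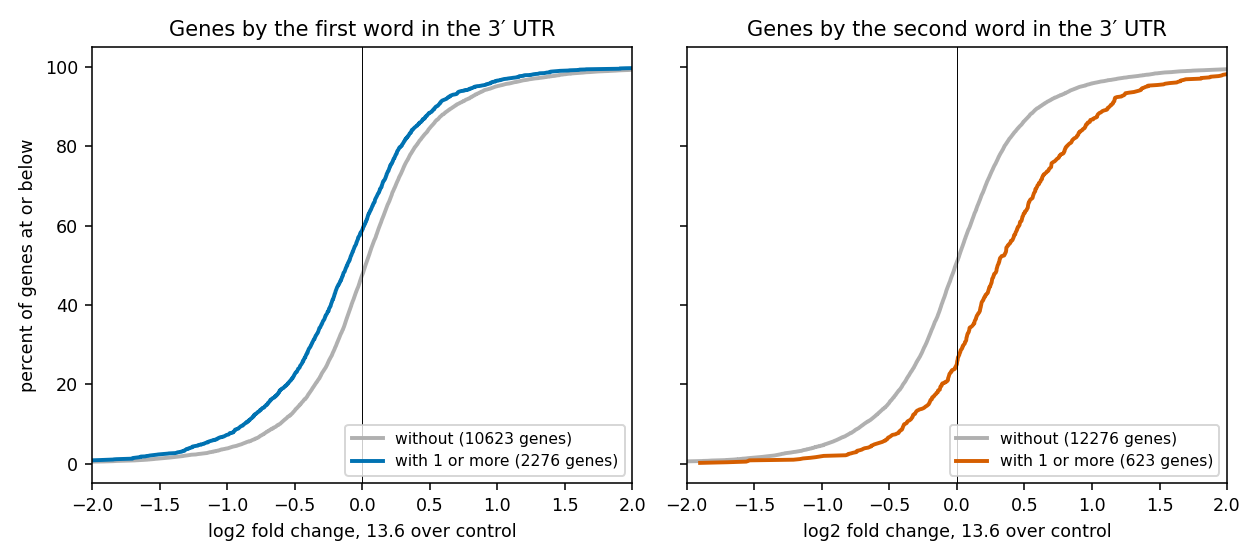
Cumulative share of genes by log2 fold change of 13.6 over control, with carriers of the first word (GCTCTGT, blue, left) and of the second word (GATTAAC, orange, right) against genes without the word (grey). The blue curve lies to the left of the grey one, with a median of −0.11 against 0.02, and the orange curve to the right, with 0.30 against −0.01.

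Pigment genes moved in both directions. All 3 melanin enzymes changed: TYR, which starts melanin synthesis, rose from 373, 399.6 and 366 CPM to 796, 809 and 819 CPM. TYRP1, an enzyme of the eumelanin branch, fell from 3456, 3614 and 3739 CPM to 2687, 2643 and 2752 CPM, and DCT, dopachrome tautomerase, from 522, 575 and 504 CPM to 386, 358 and 396 CPM. The groups of all 3 enzymes lay apart. OCA2, a chloride channel that sets melanosome pH, fell from 68.1, 72.8 and 61.0 CPM to 23.4, 21.0 and 26.5 CPM (−1.51 ± 0.12), and SLC45A2, a second transporter of melanosome pH, rose from 289.8, 395 and 360.4 CPM to 538, 604 and 598 CPM (0.74 ± 0.10). CTNS, which exports cystine from lysosomes and melanosomes, fell by 0.53 ± 0.07 on the log2 scale, and QPCT, glutaminyl cyclase, rose (0.60 ± 0.06). Of the 20 melanosome transporters and structural proteins tested, 4 were higher, 6 lower and 10 did not pass, with a median of −0.01. PMEL, the fibril protein and the most read gene of this list, stood at 7276, 7979 and 8941 CPM in the controls and 8058, 8538 and 9036 CPM with 13.6, and its difference of 0.08 ± 0.08 did not pass (adjusted p = 0.427). MLANA fell by 0.20 ± 0.07 (adjusted p = 0.0246), a call that was lost when control replicate 2 or 3 or 13.6 replicate 1 or 2 was left out (adjusted p = 0.0564 to 0.0839).

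The lineage factors above these genes did not go down together. MITF, the master regulator of melanocytes, was read at 721, 925 and 729 CPM in the controls and 767, 729.5 and 807 CPM with 13.6, with control replicate 2 above all other libraries, and showed −0.04 ± 0.11 (adjusted p = 0.759). PAX3, which activates MITF, did not pass either (0.06 ± 0.07). SOX10, the neural crest factor that keeps MITF on, rose from 578, 656 and 596 CPM to 742, 791 and 757 CPM (0.32 ± 0.07), and SNAI2, a zinc finger factor of the neural crest, from a mean of 99.6 ± 7.57 CPM to 193 ± 1.84 CPM (SD, n = 3) (0.96 ± 0.06). LEF1, the melanocyte partner of beta-catenin, rose (0.43 ± 0.06), whereas POU3F2, the BRN2 factor of invasive melanoma, fell from 45.1, 34.0 and 42.8 CPM to 26.4, 25.9 and 21.7 CPM (−0.72 ± 0.11) and TFAP2A fell by 0.43 ± 0.07. Over 16 tested lineage factors 9 were higher and 4 lower, with a median of 0.29. MC1R itself rose from 22.7, 27.3 and 22.8 CPM to 30.7, 33.04 and 31.1 CPM (0.38 ± 0.08). In the cyclic AMP list 13 of 36 were higher and 10 lower, with a median of 0.03. GNAI3, an inhibitory G protein, rose (0.58 ± 0.05) and GNAI1, a second one, fell by 0.69 ± 0.09. PDE3B, which degrades cyclic AMP, rose from 75.2, 77.5 and 62.4 CPM to 119.8, 108 and 120.3 CPM (0.70 ± 0.10), and PRKAR1A, a regulatory subunit of protein kinase A, fell by 0.57 ± 0.06. Between the reagents, MITF was 0.93 ± 0.11 higher with 13.6 than with 13.8, TYRP1 1.54 ± 0.07 lower and MC1R 0.74 ± 0.08 lower on the log2 scale.

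Genes of the proton pump and of melanosome sorting were more often lower than higher. The vacuolar proton pump, which acidifies lysosomes and young melanosomes, had 12 lower and 5 higher of 23 tested, with a median of −0.27, against 25.0% lower among all genes. ATP6V0C, the ring subunit, fell from 236, 228 and 213 CPM to 131, 139 and 126 CPM (−0.77 ± 0.06), and ATP6V0E2, a small membrane subunit, by 0.73 ± 0.09. The accessory subunits ATP6AP1 and ATP6AP2 rose (0.37 ± 0.05 and 0.47 ± 0.05). Of 38 adaptor, BLOC and HOPS genes, which sort cargo to melanosomes and lysosomes, 16 were lower and 6 higher, with a median of −0.10. VPS33A, a core subunit of the HOPS tether, fell from 83.9, 86.9 and 86.7 CPM to 39.9, 35.0 and 39.6 CPM (−1.17 ± 0.07), and HPS3, of BLOC-2, by 0.70 ± 0.08. BLOC1S6, pallidin of BLOC-1, rose from 42.3, 43.2 and 42.0 CPM to 102, 94.2 and 92.6 CPM (1.18 ± 0.06). RAB38, which carries melanin enzymes to melanosomes, fell from 509, 536 and 599.6 CPM to 299, 305 and 320.3 CPM (−0.83 ± 0.07), and was 1.02 ± 0.07 higher with 13.6 than with 13.8. RAB18, of lipid droplets, fell by 1.09 ± 0.08, and RAB21 and RAB14, of early endosomes, rose (1.17 ± 0.08 and 0.94 ± 0.06). Of 48 RAB genes 18 were higher and 15 lower.

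Lysosomal and autophagy genes showed no common direction, with 16 higher and 11 lower of 48 and 8 higher and 8 lower of 33. The autophagy shares, 24.2% each way, are near those of all tested genes, 24.9% higher and 25.0% lower. BECN1, the beclin of the PI3 kinase complex that starts autophagosomes, fell from 121, 115 and 119.8 CPM to 40.6, 39.9 and 40.9 CPM (−1.56 ± 0.05), and ATG14, its partner in that complex, from 33.8, 33.6 and 32.2 CPM to 18.8, 17.5 and 17.8 CPM (−0.88 ± 0.07). ATG5, of the conjugation step that lipidates LC3, rose from 20.6, 20.9 and 19.8 CPM to 46.1, 45.2 and 42.8 CPM (1.13 ± 0.07). CTSA, protective cathepsin A, fell from 294, 312 and 305 CPM to 147, 149 and 146 CPM (−1.04 ± 0.05), and FUCA1, a fucosidase, by 1.30 ± 0.06. NAGLU and GLB1, hydrolases of heparan sulfate and of galactosides, rose (0.82 ± 0.06 and 0.73 ± 0.06). BECN1 was 1.60 ± 0.05 lower with 13.6 than with 13.8.

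Genes of DNA replication and mitosis were lower in most members. Of 52 replication genes 30 were lower (57.7%, against 25.0% of all tested genes) and 6 higher, with a median of −0.33. RRM2, the regulated subunit of ribonucleotide reductase, fell from 100.2, 117 and 102 CPM to 45.3, 49.6 and 49.9 CPM (−1.14 ± 0.08). CDC45, of the replicative helicase, fell from 57.3, 72.3 and 68.1 CPM to 26.8, 31.9 and 31.0 CPM (−1.14 ± 0.10), and PCNA, the sliding clamp, by 0.52 ± 0.06. The helicase subunit MCM2 did not pass (−0.14 ± 0.06, adjusted p = 0.0812). ORC2 and RFC4, of the origin complex and the clamp loader, went against the list and rose (0.44 ± 0.06 and 0.49 ± 0.06). In the mitotic list 31 of 47 were lower and 5 higher, with a median of −0.32, and 3 were higher without control replicate 3 or 13.6 replicate 1. CDC25A, the phosphatase that activates CDK2, fell from 80.9, 75.2 and 76.1 CPM to 35.2, 37.4 and 35.9 CPM (−1.10 ± 0.06), and MYBL2, which switches on late cell cycle genes, from 172, 196 and 165 CPM to 96.2, 106 and 105 CPM (−0.79 ± 0.08). CCND1, cyclin D1, rose from 1202, 1102 and 1048 CPM to 1540.0, 1455 and 1464 CPM (0.41 ± 0.08), as did HMMR, a spindle protein (0.74 ± 0.07). Kinetochore genes had 21 lower and 5 higher of 46, where ZWINT fell by 0.77 ± 0.07 and NUF2 rose (0.82 ± 0.06).

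Of 25 E2F factors, pocket proteins and CDK inhibitors 11 were lower (44.0%, against 25.0% of all tested genes) and 5 higher, with a median of −0.15. E2F1, an activator of S phase genes, fell from 50.6, 54.1 and 57.5 CPM to 22.5, 23.3 and 22.7 CPM (−1.24 ± 0.07), E2F2 by 0.83 ± 0.10 and LIN52, of the DREAM complex, from 17.7, 19.6 and 16.3 CPM to 5.50, 5.45 and 6.25 CPM (−1.64 ± 0.10). MYC did not pass, at 414, 373 and 387 CPM in the controls and 375, 393 and 385 CPM with 13.6 (−0.03 ± 0.06, adjusted p = 0.725). DNA repair and checkpoint genes had 27 lower and 9 higher of 62, with a median of −0.18. XRCC3, of homologous recombination, fell from 59.9, 61.2 and 61.9 CPM to 28.5, 32.3 and 30.8 CPM (adjusted p = 2.03e-07), and NBN and FANCC, of break sensing and crosslink repair, rose (0.85 ± 0.08 and 1.05 ± 0.10). Compared with 13.8 the order differed from gene to gene: CDC25A was 0.70 ± 0.06 and CENPU, a centromere protein that fell by 0.84 ± 0.07 against control, 0.72 ± 0.07 higher with 13.6, E2F1 was 0.48 ± 0.07 lower, and RRM2 did not pass (0.08 ± 0.08). Kinesins were balanced, with 12 higher and 10 lower of 34.

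Genes of respiration and redox defence were seldom higher. Serine, one-carbon and amino acid stress genes had 16 lower and 8 higher of 33, but the serine pathway itself was divided, since PSAT1, its second enzyme, rose from 24.9, 26.5 and 26.5 CPM to 122, 132 and 127 CPM (2.29 ± 0.06) and PSPH, its last, fell from 152, 165 and 176 CPM to 83.0, 87.3 and 89.9 CPM (−0.92 ± 0.07). Glutathione and NRF2 target genes had 20 lower and 3 higher of 37, with a median of −0.24, and 6 higher without control replicate 3. GSR, glutathione reductase, fell from 86.7, 96.5 and 93.8 CPM to 43.1, 44.0 and 44.5 CPM (−1.08 ± 0.06), and CTH, which makes cysteine, from 124, 120.1 and 122 CPM to 59.2, 65.0 and 62.4 CPM (−0.97 ± 0.06). GCLC and PRDX6 went against them and rose (0.48 ± 0.08 and 0.50 ± 0.06). Of 44 complex I genes 13 were lower and 3 higher, and the latter count became 6 once control replicate 3 was dropped, and 1 on dropping control replicate 1, control replicate 2, 13.6 replicate 2 or 13.6 replicate 3; the share lower, 29.5%, is near the 25.0% of all genes. NDUFB10, a membrane arm subunit, fell from 75.4, 82.7 and 97.9 CPM to 25.1, 30.2 and 30.3 CPM (−1.58 ± 0.11). Of 47 nuclear genes of complexes II to V 14 were lower and 2 higher, with a median of −0.16. The share lower, 29.8%, is near the 25.0% of all tested genes, and the share higher, 4.3%, is below the 24.9%. ATP5F1, now ATP5PB, the stator of ATP synthase, was one of the 2 and rose from 157, 172 and 178 CPM to 385, 405 and 409 CPM (1.24 ± 0.06), whereas ATP5C1 and ATP5D, of its rotor, fell by 0.82 ± 0.11 and 0.71 ± 0.09.

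Lipid and glucose genes held large single changes. ACLY, which makes cytosolic acetyl-CoA, fell from 204, 231 and 201 CPM to 105, 99.8 and 111 CPM (−1.01 ± 0.07), and FADS2, a desaturase, by 1.52 ± 0.12. ACSL4, which loads polyunsaturated fatty acids, rose from 18.9, 20.9 and 19.6 CPM to 67.5, 62.8 and 61.6 CPM (1.69 ± 0.07), and SC5D, of late cholesterol synthesis, from 17.9, 18.8 and 18.8 CPM to 56.4, 57.6 and 61.1 CPM (1.66 ± 0.07). LDHB and PGAM1, of lactate use and glycolysis, rose (1.03 ± 0.07 and 1.20 ± 0.08) in a glycolysis and hypoxia list of 37 in which 13 were lower. HIF1A rose (0.71 ± 0.06) while ADM, a well-known target of it, fell by 0.76 ± 0.09. Translation factors had 19 higher and 6 lower of 48, with a median of 0.07. EIF4B rose from 447, 512 and 464 CPM to 731, 723 and 763 CPM (0.64 ± 0.07), and EIF6, which keeps ribosomal subunits apart, fell from 281, 249 and 337 CPM to 102, 115 and 116 CPM (−1.38 ± 0.11). VARS, valyl-tRNA synthetase, fell from 282, 291 and 275 CPM to 127, 139 and 132 CPM (−1.09 ± 0.06), and PSMC5, an ATPase of the proteasome cap, from 123, 130.3 and 143 CPM to 54.4, 55.1 and 61.0 CPM (−1.22 ± 0.07).

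Interferon-stimulated genes were higher in most members. The table lists 51 of them, and 46 were tested. Of these 33 were higher (71.7%, against 24.9% of all tested genes), 15 of them at least 2-fold, 4 were lower and 9 did not pass. Their median was 0.64, on which the lower bound of XAF1 has no effect. IFI44L and XAF1, with 1 and 0 control reads in sum, could pass the read filter only through libraries of the TBX3 reagents, so their rise adds no support to these counts. MX2, RSAD2, CMPK2, EPSTI1 and TRIM22 were under the read filter, with at most 6 reads in any of the 6 libraries. IFI6, a mitochondrial membrane protein, rose from 61.8, 77.4 and 87.2 CPM to 193, 238 and 223 CPM (1.53 ± 0.12), and ISG15, a ubiquitin-like modifier, from 14.4, 21.2 and 23.1 CPM to 51.6, 63.4 and 58.2 CPM (1.56 ± 0.18). OAS1, a sensor of duplex RNA, rose from 1.26, 1.30 and 1.61 CPM to 9.77, 11.3 and 9.70 CPM (2.88 ± 0.15). IFIT3 and IFIT1, of the antiviral IFIT family, rose from 9.07, 11.3 and 9.29 CPM to 38.9, 41.7 and 37.5 CPM (2.00 ± 0.09) and from 2.90, 4.24 and 3.42 CPM to 7.78, 9.14 and 9.72 CPM (1.34 ± 0.15). MX1, a dynamin-like antiviral protein, went against them and fell from 14.1, 15.1 and 16.1 CPM to 6.50, 5.71 and 7.08 CPM (−1.23 ± 0.10), and PLSCR1, a scramblase, from 178, 207 and 204 CPM to 114, 124 and 126 CPM (−0.70 ± 0.07). STAT2, of the interferon signal itself, fell as well (−0.54 ± 0.07). Among sensors and relays of duplex RNA 15 of 27 were higher and 6 lower, with a median of 0.30. DDX58, now RIGI, rose from 5.41, 5.69 and 4.55 CPM to 13.7, 13.99 and 15.5 CPM (1.47 ± 0.11) and IFNAR1, a chain of the interferon receptor, from 33.2, 29.2 and 32.95 CPM to 75.7, 66.8 and 70.1 CPM (1.16 ± 0.07). The kinases below that receptor, JAK1 and TYK2, fell by 0.51 ± 0.08 and 0.40 ± 0.07. Whether a response to duplex RNA as such has a part in these changes was not tested, and the controls received a DsiRNA too.

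**Figure D4:**
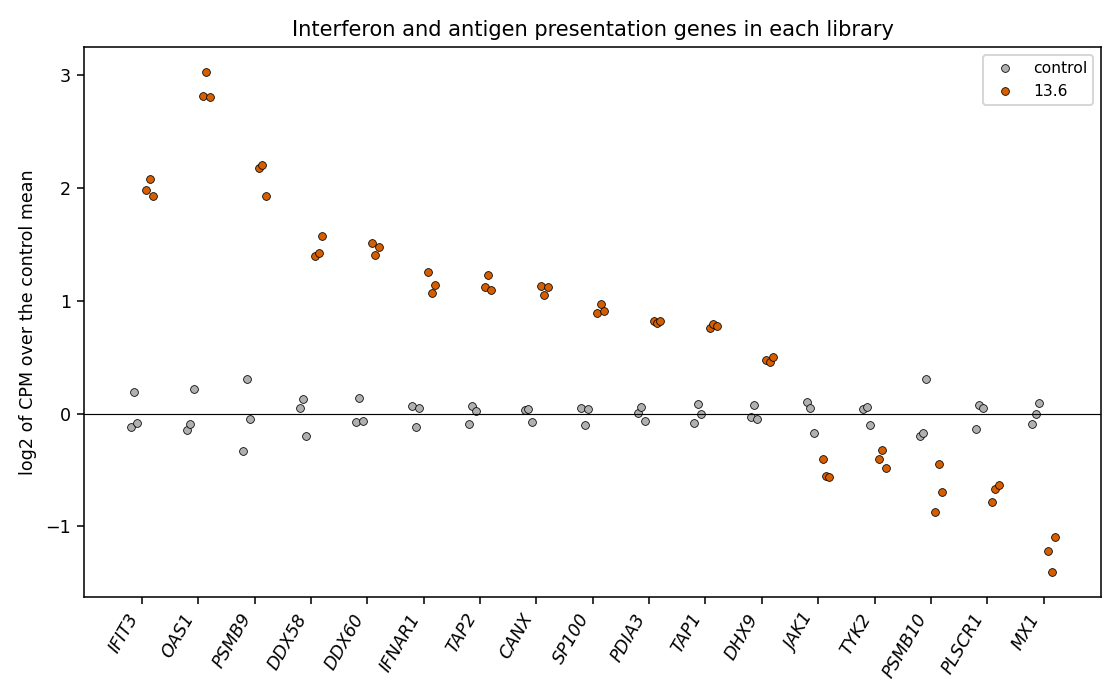
Each point is 1 library, placed at the log2 of its CPM over the mean of the 3 controls, for 17 genes of interferon response, duplex RNA sensing and antigen presentation; controls are grey and 13.6 orange. The 3 libraries of 13.6 lie above the controls in the first 12 genes and below them in the last 5, from JAK1 to MX1.

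Most genes of antigen presentation were higher too. Of 21 genes of MHC class I presentation, 14 were higher (66.7%, against 24.9% of all tested genes) and 1 was lower, with a median of 0.53. A second was lower when control replicate 3 or 13.6 replicate 3 was left out. TAP2, a subunit of the peptide transporter, rose from 41.0, 45.6 and 44.2 CPM to 94.8, 102 and 93.3 CPM (1.15 ± 0.06), CANX, calnexin, from 429.8, 434 and 401 CPM to 922, 872 and 918 CPM (1.10 ± 0.06), and B2M, the light chain, from 167, 184 and 217 CPM to 303, 334 and 333 CPM (0.77 ± 0.09). PSMB10, an immunoproteasome subunit, fell from 16.9, 17.2 and 24.0 CPM to 10.5, 14.2 and 11.9 CPM (−0.66 ± 0.15), while its partner PSMB9 rose from 0.584, 0.910 and 0.709 CPM to 3.32, 3.38 and 2.79 CPM (2.12 ± 0.21). In the chemokine, cytokine and NF-kB list 9 of 20 were higher. CXCL8, interleukin 8, was the lower one, with a second lower without control replicate 3, and fell from 21.3, 14.5 and 24.8 CPM to 5.24, 7.07 and 7.85 CPM (−1.59 ± 0.22), and ICAM1 and RELB rose (0.54 ± 0.06 and 0.82 ± 0.11). Against 13.8, CXCL8 was 3.94 ± 0.22 lower and MX1 0.56 ± 0.10 lower with 13.6, IFNAR1 and TAP1 did not pass (−0.02 ± 0.07 and 0.01 ± 0.07), and TAP2 was higher (0.50 ± 0.06).

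Promoters of these genes were read for the short element that interferon factors bind. RefSeq promoters on GRCh38.p14, from 250 bases before to 50 after the start, were at hand for 11285 tested genes and matched by symbol alone, since the counts rest on hg19. The element was searched on both strands as GAAA, any 2 bases and GAAA again. It stands in 3.65% of all 27305 promoters and in 2.90% of those of tested genes. Among interferon-stimulated genes 24 of 37 promoters hold it, in the MHC class I list 7 of 17 and in the duplex RNA sensor list 4 of 20. The share was 7.06% of 425 genes at least 2-fold higher, which include interferon-stimulated genes, and 2.84% of 422 at least 2-fold lower. Stretches of genes that rose are printed 5′ to 3′ along the gene's strand with the match, or its reverse complement, in capitals:
IFIT3 (chr10:89327867-89327892, plus strand): taaattagTTTCACTTTCcagtttcc
IFIT1 (chr10:89392499-89392524, plus strand): agctttagTTTCACTTTCccctttcg
IFI6 (chr1:27672331-27672356, minus strand): agagagggGAAAATGAAActctgcag
ISG15 (chr1:1013382-1013407, plus strand): gggaaaggGAAACCGAAActgaagcc
B2M (chr15:44711371-44711396, plus strand): aagaaaagGAAACTGAAAacgggaaa
TAP2 (chr6:32838780-32838805, minus strand): ggggaagcGAAAGCGAAAgctgcccg

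The promoters of MX1, PLSCR1 and PSMB10 hold the element as well, and these genes fell. Those of IFI27, ISG20, HERC5, SOCS1, HLA-F and TAPBP also hold it, and these genes did not pass the test. The T-box half-site AGGTGTGA, searched on both strands, stands in 0.982% of all promoters and in 0.709% of those of tested genes. It stood in 0.69% of promoters of genes that were higher, 0.869% of those lower, 8 of 425 promoters of genes at least 2-fold higher and 2 of 422 at least 2-fold lower. The E2F sites TTTCCCGC and TTTGGCGC, on both strands, stand in 2.31% of all promoters, in 3.56% of those of tested genes, in 4.76% of genes that were lower, 2.55% of genes that were higher and 3.47% of genes that did not pass, and in 17 of 45 of the replication list. A match describes a stretch of letters and shows neither binding nor a cause.

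Cell surface and BMP genes were more often higher than lower. The TGF-beta, BMP and activin list had 29 higher (59.2%, against 24.9% of all tested genes) and 4 lower of 49, with a median of 0.37. SMAD5, which carries the BMP signal, rose from 22.6, 20.4 and 21.1 CPM to 71.7, 66.4 and 67.2 CPM (1.68 ± 0.08). ID1 and ID3, inhibitors of bHLH factors and direct targets of that signal, rose from 2.45, 2.21 and 2.98 CPM to 9.99, 10.4 and 10.8 CPM (2.03 ± 0.12) and from 46.2, 53.9 and 61.8 CPM to 236, 281 and 248 CPM (2.24 ± 0.12). The other ID genes rose less (ID2 0.40 ± 0.14, ID4 0.38 ± 0.14). The ligands BMP6 and BMP2 and the inhibitor SMAD6 rose as well (1.80 ± 0.19, 1.03 ± 0.37 and 1.15 ± 0.15). The activin-type subunit genes INHBE and INHBA fell (−1.64 ± 0.15 and −1.37 ± 0.37), and LTBP1, which stores latent TGF-beta, by 0.40 ± 0.08. Integrins, cadherins and adhesion molecules had 21 higher and 6 lower of 37, with a median of 0.37, and 3 lower without control replicate 1. ITGB1, the common beta chain, rose from 134, 124 and 119 CPM to 261, 244 and 259 CPM (1.02 ± 0.06), with ITGA6 and ITGA2, alpha chains of laminin and collagen receptors (1.15 ± 0.08 and 1.61 ± 0.13). ITGA7 went against them and fell by 0.78 ± 0.08. Matrix glycoproteins had 24 higher and 11 lower of 60, with LAMB1 and LAMA4, laminin chains, higher (0.82 ± 0.07 and 1.23 ± 0.09). CTGF, now CCN2, fell from 60.4, 53.5 and 54.95 CPM to 22.7, 21.5 and 20.03 CPM (−1.39 ± 0.08). CTGF and CYR61 are textbook targets of YAP1, which itself rose from 139.5, 115 and 115 CPM to 239, 207 and 214 CPM (0.83 ± 0.08); the Hippo list had 9 higher and 12 lower of 34.

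Signalling genes of growth were divided. Of 48 MAPK genes 13 were higher and 13 lower (27.1% each), near the 24.9% and 25.0% of all tested genes. ETV1, an ETS factor of melanoma, rose from 49.9, 48.3 and 50.2 CPM to 117, 112 and 111 CPM (1.19 ± 0.06), while MAPK4, an atypical MAP kinase, fell from 77.4, 75.4 and 67.0 CPM to 24.99, 23.5 and 22.8 CPM (−1.63 ± 0.08) and FOSL2 by 0.91 ± 0.06. ERBB2 fell from 26.3, 29.01 and 24.6 CPM to 11.8, 9.48 and 9.59 CPM (−1.37 ± 0.11), and VEGFA by 0.43 ± 0.08. Among ephrin, semaphorin and plexin genes 20 of 55 were higher and 6 lower, with a median of 0.23: NTN1, netrin, rose from 15.9, 17.6 and 14.3 CPM to 42.9, 46.8 and 46.9 CPM (1.52 ± 0.09), EPHA4 from 83.4, 93.4 and 77.3 CPM to 166, 153 and 152 CPM (0.89 ± 0.09), and SLIT1 fell by 1.20 ± 0.17. In the WNT list 17 were higher and 12 lower of 41, with FZD7 and LRP6, receptors, higher (0.65 ± 0.06 and 0.56 ± 0.08) and AXIN2, a feedback target, lower by 0.51 ± 0.07. Cell death genes had 11 higher and 7 lower of 29 (37.9% and 24.1%, the latter near the share of all tested genes). XIAP, an inhibitor of apoptosis, rose (0.87 ± 0.07), and PMAIP1, NOXA, fell by 0.55 ± 0.09.

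Glycan assembly, transporters and the silencing machinery complete the picture. Of 48 genes of GPI anchors and N-glycans 23 were higher and 12 lower, with a median of 0.19, and PIGF and PIGV, of the anchor pathway, fell by 1.28 ± 0.10 and 1.11 ± 0.11. Golgi glycosyltransferases had 19 higher and 8 lower of 46: ST3GAL6, a sialyltransferase, rose from 247, 289 and 276 CPM to 562, 561 and 586 CPM (1.08 ± 0.07), and MAN2A1 and MAN2A2, a pair of mannosidases of the same step, moved apart (1.23 ± 0.07 and −0.99 ± 0.07). ABCB5, a transporter that marks melanoma subpopulations, fell from 128, 103 and 123 CPM to 42.5, 42.7 and 40.2 CPM (−1.50 ± 0.09), and PRAME, a tumour antigen, rose (0.38 ± 0.07). In the microRNA and RNA interference machinery 5 of 22 were higher and 5 lower, all by less than 2-fold, with a median of 0.04. These shares, 22.7% each, are near those of all tested genes, 24.9% higher and 25.0% lower. AGO3 and AGO4 rose (0.54 ± 0.07 and 0.45 ± 0.09), DROSHA fell by 0.45 ± 0.08, and DICER1 (0.20 ± 0.09, adjusted p = 0.0833) and AGO2 (−0.15 ± 0.07, adjusted p = 0.105) did not pass. DICER1 passed when control replicate 1 was left out (0.26 ± 0.10, adjusted p = 0.0445), and AGO2 when control replicate 3 was left out (−0.21 ± 0.07, adjusted p = 0.0299). Of 14 housekeeping genes 5 were lower and 1 was higher, the transferrin receptor TFRC, which rose from 636, 602 and 496 CPM to 1138, 997 and 1128 CPM (0.91 ± 0.10).

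**Figure D5:**
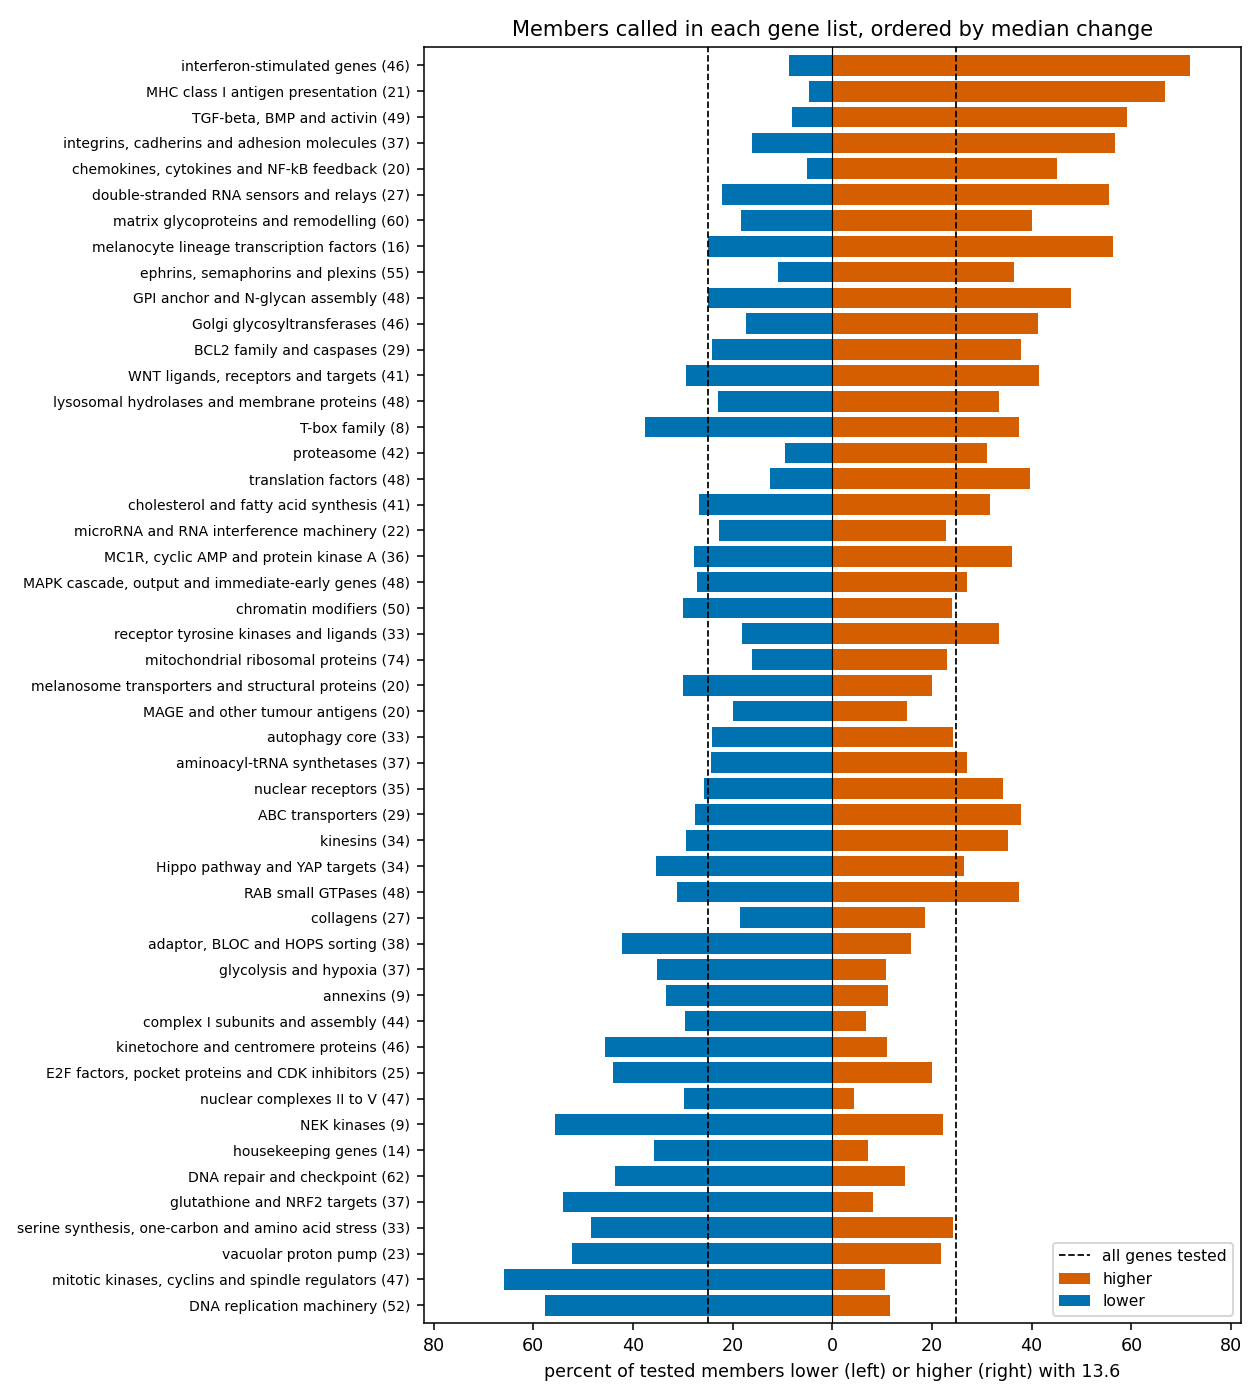
For each gene list drawn, with the number of tested members in brackets, the bars give the percent of members lower (blue, left) and higher (orange, right) with 13.6, in the order of the median change; dashed lines mark all genes tested, 25.0% lower and 24.9% higher. Interferon, MHC class I and BMP lists stand at the top, and replication, mitosis and the proton pump at the bottom. Lists with few tested members, the cell type markers and the p53 target list (10 higher and 7 lower of 28) are not drawn.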

How the data were processed

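Total RNA was sequenced from strand-marking libraries, and HTSeq raw counts per gene symbol after STAR alignment to hg19 were deposited by the authors, per the submitters' processing notes, which also name cutadapt, FastQC and DESeq2. For these tools no version is given in the sources used here, nor are the annotation and the strand rule of counting. A deposited table of normalized values was not used. Of 25398 entries 16 repeats were left out, and 28 entries with date-like names (0.200% of reads) stayed in the totals unnamed.

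The fit used edgeR 4.0.16 in R 4.3.3. filterByExpr (at least 10 reads) kept 14731 genes with 99.98% of the reads, and TMM scaling and a robust quasi-likelihood fit with 1 mean per group over all 9 libraries (6 residual degrees of freedom) gave two-sided tests at a Benjamini-Hochberg adjusted p under 0.05. The fit was run on simulated data with known changes in a small set of well-read genes and an equal spread for all genes. That setting is simpler than these data, so it checks the working of the fit and not the calls. DESeq2 1.42.0, limma-voom (limma 3.58.1), other scalings, filters and thresholds, the replicate block and leaving out each library were the alternatives. Named genes are TBX3, the 20 genes most raised and the 20 most lowered at an average of 5 CPM or more and without overlap, at most 4 per list by smallest adjusted p and at most 2 moving the other way, and genes set by name. PCNA, MCM2, B2M, IFI6, ISG15, IFIT1, STAT2, ID2, ID4, BMP2, BMP6, SMAD6, INHBA, the small nucleolar RNAs with their hosts and the genes under 5 CPM fall outside that rule and were picked with their values seen; some genes that the rule names are not reported here. Members, lists and the 3′ UTR words were chosen with earlier results of these data known, so list counts are descriptions. For the 3′ UTR search, 1 GENCODE v29 transcript per symbol with the longest coding sequence was used, for 12899 genes. Replicate libraries varied beyond counting error, and depth limits genes under 1 CPM the most. Same-numbered libraries of control and 13.6 deviated together at correlations of 0.14, −0.06 and 0.07, and differently numbered ones at −0.14 to 0.08. The numbers were therefore not taken as pairs.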

Additional observations from a re-analysis of the deposited data

How the results depend on the processing

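TBX3 kept its direction and its call under every alternative run, from −0.97 to −1.09 on the log2 scale. The counts of higher and lower genes stayed within 1.5 times of the reported 3668 and 3689, from 3105 and 3197 at the lowest to 3705 and 3765 at the highest when single libraries were left out, 2667 and 2703 at an adjusted p under 0.01, and 3244 and 4063 with library totals in place of TMM, which moved the median of all genes from −0.01 to −0.05. DESeq2 called 3759 and 3804 and limma-voom 3678 and 3622; with the 6 libraries alone the counts were 3605 and 3393. A filter on a mean of at least 50 reads, which tests fewer genes, lowered the genes at least 2-fold higher from 586 to 384 and those at least 2-fold lower from 607 to 395; leaving out single libraries gave 538 to 622 and 525 to 615. With the replicate block, 4007 genes were higher and 4003 lower (590 and 601 at least 2-fold), and 7318 of the 7357 calls were shared. TBX3 then stood at −1.02, and DICER1 was the only named gene whose call changed. The main fit did not take the replicate numbers as pairs. Of 281 named genes (279 tested with the 6 libraries alone and 272 under the mean of at least 50 reads), between 0 and 5 of those tested changed their call under each alternative and none its direction. The higher count of the proteasome list (13 of 42) fell to 6 without 13.6 replicate 2 or 3 or control replicate 1 and to 8 without control replicate 2. At an adjusted p under 0.01 the lower count of the adhesion list fell from 6 to 2. Depth limits genes below 1 CPM, of which 21.1% were called.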
